A study of Mus musculus with 2 samples.

Results

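GABA and glycine are the main inhibitory transmitters of the nervous system, and the 29 genes described here code for their receptors, their synthesis enzymes and their transporters. They were taken by symbol from the 32286 genes counted in single nuclei of mouse vagus nerve ganglia, and each symbol matched 1 gene. They hold 16 subunits of GABA-A receptors, both subunits of the GABA-B receptor, 5 subunits of glycine receptors, 2 synthesis enzymes and 4 transporters. Other genes of these families were not analysed here.

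GABA-A and glycine receptors are chloride channels made of 5 subunits, and the mix of subunits sets where the channel sits, how long it stays open and which drugs bind it. GABA-B receptors couple to G proteins and are pairs of *Gabbr1* and *Gabbr2* products, of which the first binds GABA and the second brings the pair to the membrane. Sensory neurons of the vagal ganglia keep much chloride inside, so that opening of these channels depolarizes them, and they carry GABA receptors on their cell bodies and on their central endings, where transmitter from brainstem cells reaches them. GABA is made from glutamate by the enzymes of *Gad1* and *Gad2* and is packed into vesicles, together with glycine, by the transporter of *Slc32a1*.

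Both groups were C57BL/6J mice of the genotype Rosa26-floxed-STOP-Cas9-eGFP, 8 to 9 weeks old when bought and fed standard chow, whose liver had been injected with AAVrg-Cre, a retrograde virus that carries Cre recombinase, 4 weeks before the ganglia were taken. The female group was 1 pool of 14 ganglia from 7 mice, and the male group was 1 pool of 16 ganglia from 8 mice. Each pool gave 1 library, so sex, pool and library cannot be told apart, there is no replicate, and no test between the sexes is given. All mice carried the allele and the virus, so there is no untreated group, and *EGFP* had 1 UMI in all. Nuclei came from whole ganglia, and no sort for eGFP is described, so the neurons need not project to the liver.

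A unique molecular identifier (UMI) stands for 1 captured RNA molecule. The female library held 3791 nuclei with a median of 2381 UMIs, and the male library held 4923 nuclei with a median of 2658 UMIs. The level of a gene is its UMIs summed over a group of nuclei per 10000 UMIs of these nuclei. Ranges in brackets are 95% intervals for the counting error alone, without the spread among mice. Those of levels and ratios also leave out the spread among nuclei, as each UMI is counted as independent. The UMIs of a member can be clumped: the 38 of *Glra3* lay in 14 nuclei and the 755 of *Gabrg3* in 230. A library number at the end of each barcode gave the sex of a nucleus, matched by how many nuclei the study states for either sex. *Xist* UMIs numbered 13424 among female and 7 among male nuclei, and *Ddx3y* had 12 and 1789 UMIs. The same barcode sequence occurred in both libraries for 8 barcodes.

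Nuclei were grouped without the member genes, so that a class is not built on their levels. The 20 clusters gave 2274 neuron-like nuclei (668 female and 1606 male), 1389 satellite glia-like, 1236 Schwann cell-like, 835 fibroblast-like, 1407 barrier fibroblast-like, 274 macrophage-like, 155 adipocyte-like and 412 endothelial cell-like nuclei. A further 412 nuclei, of which 388 were female, resembled granule cells of the cerebellum, which lies beside the brainstem and not in the ganglion. Their level of *Fat2*, one of the genes used for the naming, was 2.58 against 0.0125 in neuron-like nuclei. The last cluster of 320 nuclei stayed unnamed, and it is left out wherever a class is called highest. A finer clustering of the same nuclei split off 158 pituitary cell-like nuclei (67 female), 151 of them from the unnamed cluster, and 36 astrocyte-like nuclei (29 female), of which 23 had been counted as satellite glia-like. The level of *Pou1f1*, one of the genes used for the naming, was 2.76 in pituitary cell-like nuclei. *Slc1a3*, which was not used for the naming, was 19.2 in astrocyte-like nuclei. This level alone does not set them apart from satellite glia-like nuclei. Free RNA in the droplets can give a nucleus UMIs of genes it does not express, so levels are set beside those of macrophage-like nuclei, whose median was 1802 UMIs against 7251 in neuron-like nuclei.

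All members together took 7.33 per 10000 UMIs (female) and 6.32 (male). The 20 members with at least 100 UMIs are described by class, and the other 9 are given by their totals. Among rare receptor subunits, *Gabrp* had 3 of 4 UMIs, *Gabrr1* 5 of 8 and *Glra3* 24 of 38 in neuron-like nuclei, and *Gabrq* had 5 of 12 in fibroblast-like nuclei. The synthesis enzyme gene *Gad2* had 22 of 79 UMIs in granule-like nuclei, the vesicle transporter gene *Slc32a1* had 6 of 23 there, and the glycine transporter gene *Slc6a5* had 2 of 5 in neuron-like nuclei. In each case this was the named class with the most UMIs, but the unnamed cluster held more of *Gad2*, 41 UMIs. Neuron-like nuclei held 26328657 of all 44965030 UMIs, so having the most UMIs there need not mean a high level. Per 10000 UMIs, *Gabrp* was highest in Schwann cell-like, *Gabrr1* in satellite glia-like, *Glra3* in barrier fibroblast-like and *Slc6a5* in granule-like nuclei. For each of these the intervals of the highest and second class overlap. Of the 59 UMIs of *Gabrr3*, a rho subunit, 51 were in neuron-like nuclei. Of the 66 UMIs of *Gabrr2*, another rho subunit, 18 were in barrier fibroblast-like nuclei, the class with the most. The 23 UMIs of *Slc32a1* were all in the female library, and 1 of them was in a neuron-like nucleus.

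Compared per length of gene, which matters because introns are counted and long genes gather more UMIs, *Gabbr1* had the highest level in neuron-like nuclei, 4.50 UMIs per 10000 and per 100 kb of gene. *Gabra2* followed with 1.08, *Glrb* with 1.02, *Gabbr2* with 0.635 and *Gabrb2* with 0.242 on the same scale. The unscaled order is different, as *Gabbr2* spans 329.6 kb and *Gabbr1* only 29.1 kb in the GENCODE annotation of GRCm38.

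Several members that neighbour each other in the genome were highest in the same named class. *Gabra6* and *Gabrb2* lie 98.7 kb apart on chromosome 11, at chr11:42306437-42321072 on the minus strand and chr11:42419757-42629028 on the plus strand of GRCm38, and both were highest in granule-like nuclei. *Gabrg1* (chr5:70751047-70842617) and *Gabra2* (chr5:70957597-71095849) are 115 kb apart on the minus strand, and both were highest in neuron-like nuclei among the named classes. In the unnamed cluster *Gabra2* was 1.30 (female) and 3.16 (male), against 1.70 and 1.41 in neuron-like nuclei. *Gabrg3* (chr7:56716465-57387188) and *Gabra5* (chr7:57407672-57510059) are 20.5 kb apart on the minus strand and were also highest in neuron-like nuclei. *Gabre* (chrX:72255999-72274803) and *Gabra3* (chrX:72432681-72656848) are 158 kb apart and were highest in barrier fibroblast-like nuclei. *Glra1* lies on chromosome 11 too, 12885 kb from *Gabrb2*, and was highest in neuron-like nuclei. Some distant neighbours shared a named class: *Gad2* and *Gad1*, 47859 kb apart, and *Gad1* and *Slc32a1*, 88009 kb apart, were highest in granule-like nuclei. The unnamed cluster held 45 UMIs of *Gad1* and 41 of *Gad2*, against 35 and 22 in granule-like nuclei. The remaining distant neighbours did not. For *Gabra5*, *Gabre*, *Gabra3*, *Glra1* and *Slc32a1* the intervals of the highest and second class overlap. Whether neighbours share a class more often than other members was not tested. *Gabra4* and *Gabrb1* overlap at their starts on opposite strands of chromosome 5. In the unnamed cluster *Gabrb1* was 1.70 (female) and 8.13 (male), against 1.93 and 0.205 in satellite glia-like nuclei. *Gabra4* was 0.0635 (female) and 0.518 (male) in the unnamed cluster, against 0.198 and 0.0342. Among the named classes both genes were highest in satellite glia-like nuclei. That place rested on the 23 astrocyte-like nuclei in this class: without them the satellite glia-like level was 0.0192 (0.00829 to 0.0378) for *Gabra4* and 0.130 (0.0973 to 0.169) for *Gabrb1*, below the neuron-like 0.0235 and 0.580. Other neighbours were highest in different classes, namely *Gabra2* and *Gabra4*, 474 kb apart on the same strand, and, with few UMIs, *Gabrr1* and *Gabrr2*, and *Gabra3* and *Gabrq*.

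The promoters of the pair that led the granule-like nuclei are shown because both genes were highest there and stand back to back in the genome. These are the 250 bases before the first start of each gene in RefSeq on GRCm38.p6, and capitals mark TTGGC or its reverse complement GCCAA, the half-site that factors of the nuclear factor I family bind. The *Gabra6* promoter is chr11:42321073-42321322 on the minus strand, and that of *Gabrb2* is chr11:42420190-42420439 on the plus strand.
Gabra6: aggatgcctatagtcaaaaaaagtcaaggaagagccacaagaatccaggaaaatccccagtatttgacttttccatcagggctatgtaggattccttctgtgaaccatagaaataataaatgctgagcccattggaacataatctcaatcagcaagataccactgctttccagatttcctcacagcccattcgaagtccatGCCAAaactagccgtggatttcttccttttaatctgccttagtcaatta
Gabrb2: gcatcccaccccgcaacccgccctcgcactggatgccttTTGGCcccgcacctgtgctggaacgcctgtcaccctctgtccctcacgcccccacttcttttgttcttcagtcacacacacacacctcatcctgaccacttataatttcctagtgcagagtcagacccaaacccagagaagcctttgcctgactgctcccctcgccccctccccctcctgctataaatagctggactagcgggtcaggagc
Each holds 1 match, which begins 49 bases before the start in *Gabra6*, on the opposite strand, and 211 bases before it in *Gabrb2*. The *Gabrb2* window lies inside the GENCODE span of the gene given above, which begins before the RefSeq start. The windows of later RefSeq starts of *Gabrb2*, which begin at chr11:42420524 and chr11:42420951, hold no match. The letters were searched on both strands, and 41.5% of the 32851 RefSeq promoters hold them in a window of this length. The *Gabra6* window has 2 CpG and 40.8% G and C, and the *Gabrb2* window has 8 CpG and 58.8%.

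Neuron-like nuclei were compared with 7 other named classes as 1 group, without granule-like and unnamed nuclei. A gene was counted as higher or lower where its levels differed at least 2-fold and it had at least 20 UMIs over both sides, which 23 of the 29 members had. Of these 23, 8 were higher in neuron-like nuclei, against 15.4% of all 19072 genes counted the same way. They were *Gabra2*, *Gabra5*, *Gabrb2*, *Gabrg1*, *Gabrg3*, *Gabrr3*, *Gabbr2* and *Glra1*. Another 4 were lower, against 20.1% of all genes: *Gabre*, *Gabrr2*, *Gad1* and *Slc6a9*. *Gad1* had only 10 UMIs in neuron-like nuclei, and with the finer clusters its ratio reversed in sign. Within the female library 7 of 21 tested members were higher (13.9% of all genes) and 7 lower (22.3%), and within the male library 9 of 18 were higher (15.4%) and 3 lower (17.7%). The median log2 ratio over the 23 members was 0.17, and that over all genes was -0.23.

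Among the alpha subunits, which with beta subunits form the GABA site, *Gabra2* stood out in neurons. Its level in neuron-like nuclei was 1.70 (female) and 1.41 (male), and in the other classes it was 0.233 and 0.194. The log2 ratio was 2.83 (2.66 to 2.99), and it was 2.87 and 2.86 within the libraries. *Gabra2* was seen in 38.4% of neuron-like and 3.65% of macrophage-like nuclei, and in 10.2% and 2.20% after each nucleus was thinned to 1000 UMIs. *Gabra5*, the subunit of many receptors outside synapses, was rarer, with a level of 0.0803 (female) and 0.0556 (male) and a log2 ratio of 1.48 (0.95 to 2.05).

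*Gabra3* went another way. It was highest in barrier fibroblast-like nuclei, with 0.577 (female) and 0.392 (male), and in fibroblast-like nuclei, with 0.495 (female) and 0.291 (male). Where in the tissue these nuclei lay was not tested. The intervals of these classes over both libraries overlap, 0.481 (0.418 to 0.552) and 0.353 (0.265 to 0.461). The finer clustering, which called 451 nuclei fibroblast-like in place of 835 and 1761 barrier fibroblast-like in place of 1407, gave 0.559 (female) and 0.409 (male) in barrier fibroblast-like nuclei but 0.560 (female) and 0.0855 (male) in fibroblast-like nuclei, the latter on 27 and 4 UMIs. In neuron-like nuclei it was 0.148 (female) and 0.144 (male), and in macrophage-like nuclei it was 0.145 (female) and 0.170 (male), so that neurons taken as a whole were at the macrophage-like level. Single groups of neurons were far above it, as described further on. Within barrier fibroblast-like nuclei the 2 clusters led by *Slc47a1* and *Col25a1* had levels of 0.793 and 0.658, and the cluster led by *Slc6a20a* and *Ranbp3l* had 0.0883.

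**Figure D1:**
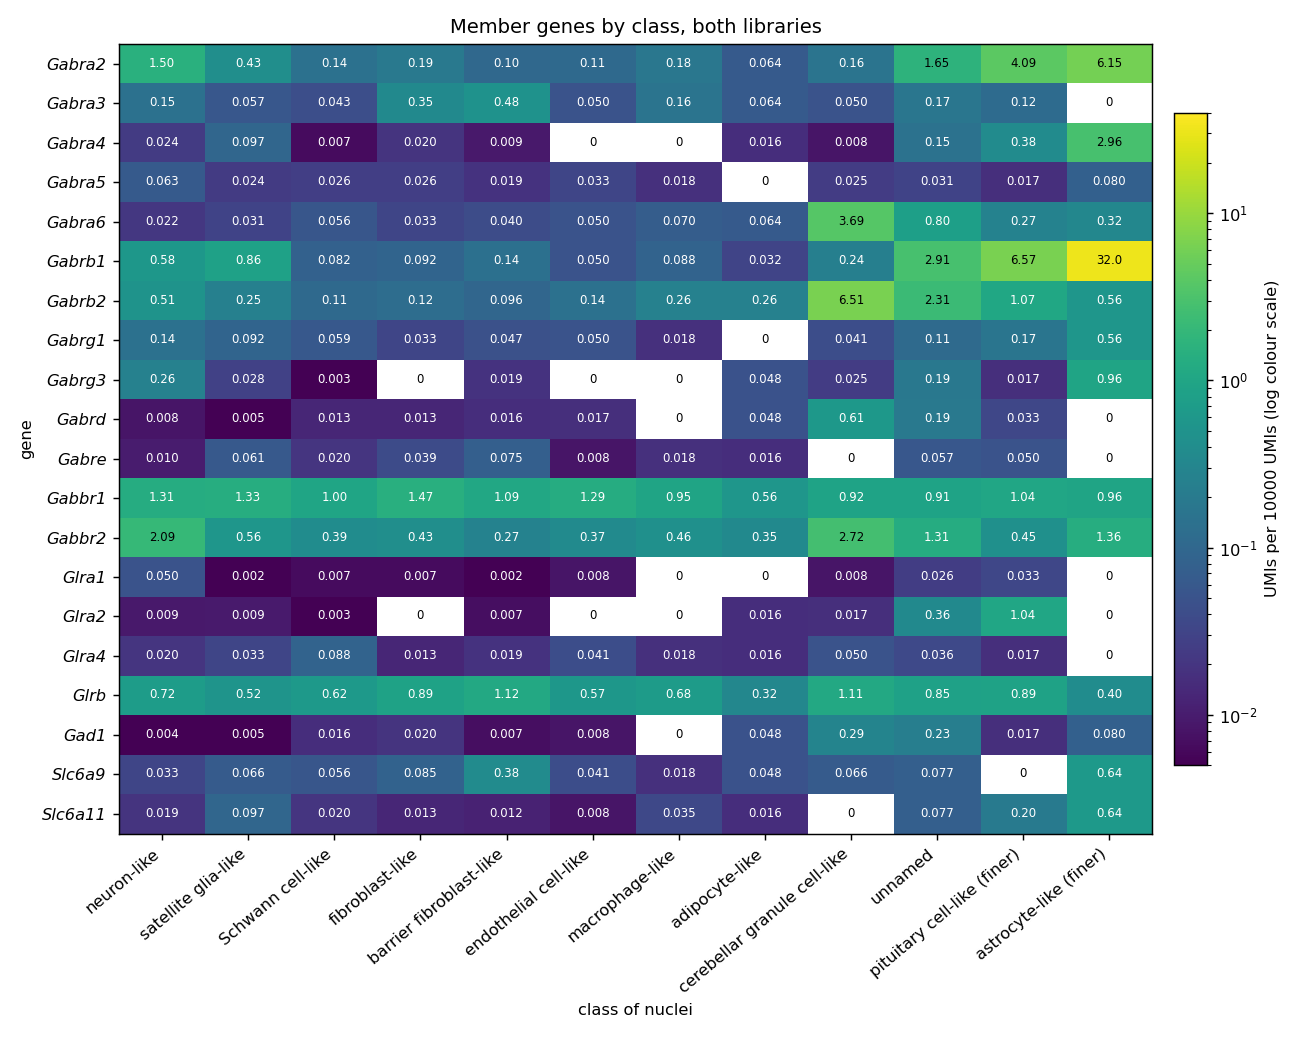
Level of the 20 members with at least 100 UMIs (rows) in each class of nuclei (columns), as UMIs per 10000 UMIs over both libraries, on a log colour scale with 0 left white; the last 2 columns come from the finer clustering and share nuclei with other columns. *Gabra2*, *Gabrg3* and *Gabbr2* are brighter in neuron-like than in other ganglion classes, *Gabra6* and *Gabrb2* are brightest in granule-like nuclei and *Gabrb1* in astrocyte-like nuclei, and *Gabbr1* and *Glrb* are coloured in all columns.

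Of the beta subunits, *Gabrb2* was 3.19-fold higher in neuron-like nuclei, with a level of 0.585 (female) and 0.474 (male). Of its 1336 UMIs in neuron-like nuclei, 822 came from subcluster 6, described further on, which held 172 of the 2274 nuclei. The ratio to the other classes without subcluster 6 is not given, so the 2-fold difference need not hold for other neurons. *Gabrb1* was 0.604 (female) and 0.570 (male) there, and its log2 ratio to the other classes, 0.92 (0.77 to 1.07), stayed under 2-fold. The 2 libraries did not give the same ratio for *Gabrb1*: it was 0.18 (-0.02 to 0.38) in female and 2.09 (1.81 to 2.38) in male nuclei. The satellite glia-like class moved with this, as its level was 1.93 (1.73 to 2.16) in female and 0.205 (0.154 to 0.268) in male nuclei. Without its 23 nuclei that the finer clustering called astrocyte-like, 19 of them female, the satellite glia-like level of *Gabrb1* was 0.117 (0.0691 to 0.184) and 0.137 (0.0961 to 0.190), and the intervals of the libraries overlap.

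The gamma subunits, which are needed for the site of benzodiazepines, split as well. *Gabrg3* had the largest ratio of neurons to other classes among the 23 members tested, 17.0-fold: its level was 0.277 (female) and 0.257 (male) in neuron-like nuclei, and fibroblast-like, endothelial cell-like and macrophage-like nuclei had 0 UMIs in both libraries. *Gabrg1* was 2.44-fold higher in neuron-like nuclei, with 0.112 (female) and 0.153 (male). *Gabre*, the epsilon subunit, was low everywhere, and 26 of its 110 UMIs were in neuron-like nuclei, a level of 0.00988 (0.00645 to 0.0145) against 0.0751 (0.0514 to 0.106) in barrier fibroblast-like and 0.0612 (0.0400 to 0.0897) in satellite glia-like nuclei.

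The GABA-B receptor subunits differed in spread. *Gabbr2* was 2.55 (female) and 1.89 (male) in neuron-like nuclei and 5.14-fold higher there than in the other classes, with a log2 ratio of 2.36 (2.24 to 2.48). *Gabbr1* was found in every class, from 0.562 in adipocyte-like to 1.47 in fibroblast-like nuclei, and its log2 ratio of neurons to other classes was 0.17 (0.09 to 0.25). The macrophage-like level of *Gabbr1* was 0.579 (female) and 1.29 (male), against the neuronal 1.05 and 1.42, and that of *Gabbr2* was 0.326 (female) and 0.577 (male). Of 7 partners of GABA-B receptors that were tested, 4 were higher and 2 lower in neuron-like nuclei. The largest differences were in *Kctd16*, an auxiliary subunit, with 12.7 against 0.662, *Kctd12b*, with 0.00798 against 0.0607, and *Kctd8*, also an auxiliary subunit, with 6.76 against 1.05.

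Glycine receptors need an alpha subunit for the glycine site, while the beta subunit of *Glrb* ties the channel to the scaffold protein gephyrin. *Glrb* was in every class, and neuron-like nuclei with 0.688 (female) and 0.729 (male) did not differ 2-fold from the others, with a log2 ratio of -0.05 (-0.16 to 0.05). It was 1.12 (1.02 to 1.23) in barrier fibroblast-like and 1.11 (0.935 to 1.32) in granule-like nuclei, the highest classes, whose intervals overlap, and another class than barrier fibroblast-like was highest when only nuclei with over 2000 UMIs were used. *Glra1* was rare, and 132 of its 144 UMIs were in neuron-like nuclei, 51 female and 81 male. Its level was 0.0501 (0.0419 to 0.0595) there. Macrophage-like nuclei had 0 UMIs, a level of 0.0525 when the zero is set at 3 UMIs, which lies within the neuron-like interval. After thinning, 0.396% of neuron-like nuclei had a UMI of *Glra1*, against 3.21% before.

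The other glycine receptor subunits were not neuronal in the same way. *Glra2*, the alpha subunit of young neurons, had 62 of its 105 UMIs in the 158 pituitary cell-like nuclei, a level of 1.31 (female) and 0.751 (male), and 24 UMIs in neuron-like nuclei, a level of 0.00912 (0.00584 to 0.0136). *Glra4* was highest in Schwann cell-like nuclei, 0.104 (0.0553 to 0.178) in female and 0.0778 (0.0425 to 0.131) in male nuclei. *Glra4* shares its place in the genome with *BC065397* on the other strand.

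Transporters that take up the transmitters were low in neurons. *Slc6a9*, the glycine transporter GlyT1, which clears glycine around synapses, was 4.48-fold lower in neuron-like nuclei than in the other classes. It was highest in barrier fibroblast-like nuclei, 0.475 (female) and 0.292 (male), and there in the cluster led by *Slc6a20a* and *Ranbp3l*, with 1.16 (female) and 0.602 (male). The 2 clusters led by *Slc47a1* had 0.0687 and 0.0731. *Slc6a9* overlaps *Ccdc24* and *B4galt2* on the other strand. *Slc6a11*, the GABA transporter GAT-3 of glia, was highest in satellite glia-like nuclei, 0.0992 (female) and 0.0950 (male), and the level there was 0.0792 (0.0545 to 0.111) over both libraries without the astrocyte-like nuclei. Its macrophage-like level was 0.0350 (0.00424 to 0.127), and these intervals overlap.

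Other carriers of GABA, glycine, taurine and glutamine went the same way as *Slc6a9*. Of 7 tested, 0 were higher and 5 lower in neuron-like nuclei. The largest differences were in *Slc6a13*, the GABA transporter GAT-2 of membranes around the brain, with 0.0285 against 0.803, *Slc6a12*, a carrier of betaine and GABA, with 0.0175 against 0.213, and *Slc38a2*, a carrier of neutral amino acids, with 2.12 against 8.01. Of 7 genes of chloride transport, 0 were higher and 3 lower in neuron-like nuclei. One of them was *Slc12a2*, the NKCC1 cotransporter that loads cells with chloride, with 1.29 in neuron-like nuclei against 3.66 in the others. Of 14 genes of receptor anchoring and trafficking, 4 were higher and 0 lower, led by *Iqsec3*, a partner of gephyrin at inhibitory synapses, with 0.640 against 0.130. Of 3 genes of GABA breakdown none passed 2-fold, of 6 of glycine breakdown 0 were higher and 2 lower, and of the ligand of the benzodiazepine site and its partner, *Dbi* was lower.

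Nuclei that could make inhibitory transmitter were looked for through *Gad1*, *Gad2*, *Slc32a1* and *Slc6a5*, the last of which codes for the glycine transporter of glycinergic neurons. At least 1 UMI of these was found in 118 of 8714 nuclei, 1.35% (1.12 to 1.62), of which 98 were female. In neuron-like nuclei the share was 0.748% (0.436 to 1.19), and in macrophage-like nuclei, which should lack these genes, it was 0.730% (0.0885 to 2.61). The macrophage-like share rests on 2 nuclei, both female, so it cannot show that the shares are equal. Neuron-like nuclei also had a larger median depth (7251 against 1802 UMIs), and their share as a whole is not read as expression. In the male library it was 0.685% (0.342 to 1.22). There 0 of 825 satellite glia-like, 0 of 694 Schwann cell-like and 0 of 549 fibroblast-like nuclei had a UMI. So did 1 of 746 barrier fibroblast-like, 1 of 195 endothelial cell-like and 1 of 42 adipocyte-like nuclei. Among the kinds of neurons described further on, the share was 4.03% (1.49 to 8.56) in sympathetic-like nuclei, 6 of 149 and all of them male. Sympathetic-like nuclei held 6 of the 10 neuron-like *Gad2* UMIs. No male macrophage-like nucleus of 137 had a UMI, which allows a share of up to 2.66%, so these intervals overlap. After thinning the share was 0.0880% in neuron-like nuclei, and none was left in macrophage-like nuclei, whose number allows a share of up to 1.34%.

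Higher shares were found in granule-like nuclei, 7.04% (4.76 to 9.95), and in the unnamed cluster, 12.5% (9.08 to 16.6). In the pituitary cell-like nuclei of the finer clustering the share was 5.06% (2.21 to 9.73). UMIs of at least 2 of the 4 genes were found in 32 nuclei, of which 31 were female, 12 were in the granule-like class, 17 in the unnamed cluster and 2 in the neuron-like class. The finer clustering placed 26 of these 32 nuclei beside neurons, so that under it the share with at least 1 UMI was 2.60% in neuron-like and 2.57% in granule-like nuclei. The 29 granule-like nuclei that it moved to the neurons had a *Gad1* level of 2.99 and a *Gad2* level of 2.0, and the other 383 granule-like nuclei had 0.0450 and 0.0180, on 5 and 2 UMIs. The 2229 nuclei that were neuron-like in both clusterings had a *Gad1* level of 0.00347.

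The 32 nuclei with 2 of these genes were also set beside genes of central inhibitory neurons. *Sorcs3*, a sorting receptor that is also among the leading genes of subcluster 3 of the neuron-like nuclei described further on, was 8.97 in them and 0.456 in other nuclei, and *Tfap2b*, a transcription factor, was 0.952 and 0.0774. Of the other genes of this list given here, *Dlx2* and *Sp8* had 0 UMIs in the 32 nuclei, and *Pax2*, *Lhx1*, *Lhx5*, *Dlx1* and *Dlx6os1* had 1 to 4 UMIs each. On these few UMIs *Pax2* was 0.146 (0.0399 to 0.375) against 0.00537 in other nuclei. *Lhx5* was 0.0732 (0.00886 to 0.264) against 0.000671, and *Dlx6os1* was 0.146 (0.0399 to 0.375) against 0.00783. For *Lhx1*, 0.0732 against 0.0103, and *Dlx1*, 0.0366 against 0.00604, the intervals overlap. *Prdm12*, which marks jugular neurons, had 3 UMIs in them.

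Vagal neurons come from the nodose ganglion, whose neurons arise from a placode and serve inner organs, and from the jugular ganglion, whose neurons arise from the neural crest and resemble those of dorsal root ganglia. Neuron-like nuclei fell into 13 subclusters. Of these, 6 were nodose-like (349 female and 857 male nuclei), 4 were jugular-like (172 and 354), 1 resembled sympathetic neurons (5 and 144), and 2 stayed unnamed. *Prdm12*, a marker of jugular neurons that was used for the naming, was 0.109 in nodose-like and 1.45 in jugular-like nuclei.

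Of 19 members with at least 20 UMIs, 6 were at least 2-fold higher in nodose-like nuclei, against 10.3% of all 16582 genes, and 6 were lower, against 6.83%. The higher ones were *Gabra4*, *Gabrb2*, *Gabrg1*, *Gabrr3*, *Glra3* and *Slc6a11*, and the lower ones were *Gabra2*, *Gabra3*, *Gabrg3*, *Gabbr2*, *Glra1* and *Glra2*. Within the female library 2 of 12 tested members were higher (9.38% of all genes) and 5 lower (6.78%), and within the male library 5 of 16 were higher (10.1%) and 4 lower (6.56%). The median log2 ratio over the 19 members was -0.19, and that over all genes was 0.05.

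The GABA-B subunit *Gabbr2* was the most abundant of those higher in jugular-like nuclei. Its level was 4.67 (female) and 4.19 (male) in jugular-like nuclei and 1.36 (female) and 1.03 (male) in nodose-like nuclei, so that both jugular values lay above both nodose values. The log2 ratio of nodose-like over jugular-like nuclei was -1.95 (-2.04 to -1.85). *Gabbr1* was 1.17 (female) and 1.58 (male) in jugular-like and 0.997 (female) and 1.34 (male) in nodose-like nuclei, under 2-fold. Of 6 partners of GABA-B receptors tested here, 2 were higher and 3 lower in nodose-like nuclei. These included *Kcnj3*, which codes for a potassium channel subunit that GABA-B receptors open, with 2.70 in nodose-like against 0.879 in jugular-like nuclei. *Kcnj6*, another subunit of such channels, went the other way, with 0.125 against 0.383, and so did *Kctd16*, with 8.63 against 23.6.

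Of the other lists, 1 of 7 genes of chloride transport (*Slc12a5*, on 33 and 5 UMIs), 1 of 14 of receptor anchoring, 1 of 3 of GABA breakdown and 1 of the 2 genes of the benzodiazepine site ligand and its partner were higher in nodose-like nuclei, and none was lower. They included *Mdga1*, an adhesion protein of inhibitory synapses, with 0.266 against 0.0913, *Aldh5a1*, an enzyme of GABA breakdown, with 0.172 against 0.0710, and *Tspo*, with 0.291 against 0.0956. Of 5 genes of glycine breakdown and 5 other carriers tested, none passed 2-fold in either direction.

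Alpha and gamma subunits divided between the kinds. *Gabra2* was 1.93 (female) and 2.16 (male) in jugular-like and 0.963 (female) and 1.0 (male) in nodose-like nuclei, with a log2 ratio of -1.07 (-1.18 to -0.96) that lies at the limit of 2-fold. *Gabra3* was 0.364 (female) and 0.375 (male) in jugular-like and 0.0554 (female) and 0.0841 (male) in nodose-like nuclei, a log2 ratio of -2.30 (-2.66 to -1.95). *Gabrg3* was 0.565 (female) and 0.403 (male) in jugular-like and 0.182 (female) and 0.203 (male) in nodose-like nuclei, with a log2 ratio of -1.22 (-1.47 to -0.97). Subcluster 10, described further on, held 190 of its 316 jugular-like UMIs, with 26.4% of all UMIs of these nuclei. The ratio without subcluster 10 is not given, so the 2-fold difference of *Gabrg3* need not hold for other jugular-like nuclei. *Gabrg1* went the opposite way to *Gabrg3*. Its level was 0.00855 (female) and 0.0438 (male) in jugular-like and 0.169 (female) and 0.250 (male) in nodose-like nuclei, a log2 ratio of 2.82 (2.19 to 3.52). *Gabrb2* was 0.171 (female) and 0.221 (male) in jugular-like and 0.905 (female) and 0.783 (male) in nodose-like nuclei, a log2 ratio of 2.01 (1.75 to 2.27), and *Gabrb1* did not reach 2-fold, with -0.44 (-0.60 to -0.29).

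Glycine receptor alpha subunits also divided. *Glra1* was 0.115 (female) and 0.112 (male) in jugular-like and 0.0448 (female) and 0.0140 (male) in nodose-like nuclei, on 78 and 29 UMIs. Of the 78, 60 were in subcluster 5, which held 42.6% of all UMIs of jugular-like nuclei. The ratio of *Glra1* without subcluster 5 is not given, so the 2-fold difference need not hold for other jugular-like nuclei. *Glra3* had 23 UMIs in nodose-like and 0 in jugular-like nuclei, a log2 ratio of at least 2.10 when the zero is set at 3 UMIs over the group. *Glra2* rested on 9 and 11 UMIs, and its interval of log2, -2.58 to 0.28, includes no difference. *Glrb* was 0.496 (female) and 0.528 (male) in jugular-like and 0.736 (female) and 0.756 (male) in nodose-like nuclei.

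**Figure D2:**
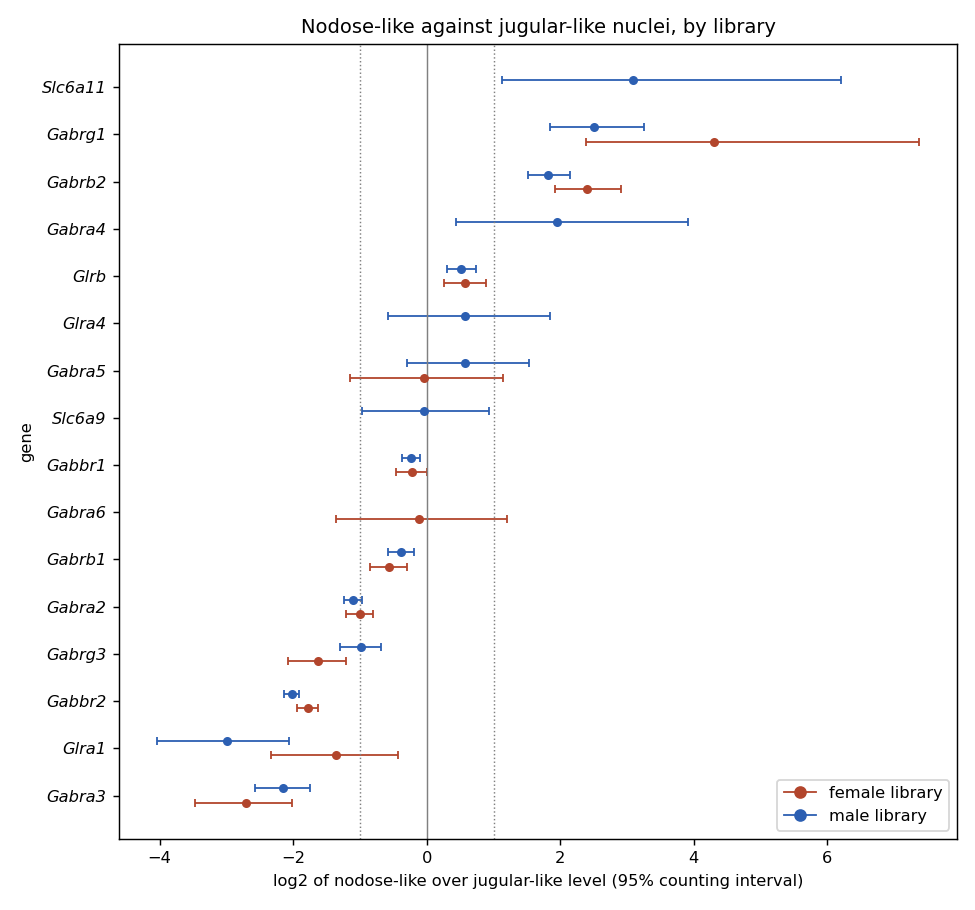
Log2 ratio of the level in nodose-like over jugular-like nuclei (horizontal axis) for described members (vertical axis), with the female library in red and the male library in blue, bars for the 95% counting interval, dotted lines at 2-fold, and no point where a library had under 20 UMIs of the gene or no UMI on one side. The points of both libraries lie on the same side of 0 for *Gabrg1*, *Gabrb2*, *Gabra2*, *Gabrg3*, *Gabbr2*, *Glra1* and *Gabra3*.

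The kinds were not uniform. Nodose-like subcluster 6, with 41 female and 131 male nuclei and 15.8% of the UMIs of nodose-like nuclei, held 81.1% of their *Gabrb2* UMIs, 52.5% of *Gabrg1*, 54.7% of *Gabra2*, 73.7% of *Gabra4* and 87.0% of *Glra3*. Its *Gabrb2* level was 4.98 (female) and 3.89 (male), and the other nodose-like subclusters ranged from 0.0269 to 0.309. Its *Gabrg1* level was 0.527 (female) and 0.845 (male), and its *Gabra2* level was 3.35 (female) and 3.47 (male). Without subcluster 6, a comparison chosen after the data had been seen, 3 members were higher in nodose-like nuclei in place of 6, and the log2 ratio of *Gabrb2* was -0.15, so that its higher level in nodose-like nuclei rested on this subcluster. The share of all genes that were higher without subcluster 6 is not given.

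Jugular-like subcluster 11, with 30 female and 83 male nuclei and led by *Cdh9* and *Tafa4*, stood apart in the same manner. *Gabra2* was 6.20 (female) and 5.33 (male), the highest level of this gene in any subcluster, and *Gabbr2* was 7.68 (female) and 5.46 (male). Without subcluster 11, also a comparison chosen after the data had been seen, the log2 ratio of nodose-like over jugular-like nuclei was -0.31 for *Gabra2*, which then did not reach 2-fold, -1.06 for *Gabra3* and 0.92 for *Gabra4*, which was also lost. *Gabra3* was 1.36 (female) and 1.20 (male) there, and 66.0% of the *Gabra3* UMIs of jugular-like nuclei came from it. The next subcluster for *Gabra3* was the jugular-like subcluster 13, led by *Trpm8*, the cold receptor, with 0.618 (female) and 0.354 (male). *Gabrb1* was high in both, 2.12 and 1.79, as well as in the nodose-like subclusters 6 and 4, with 1.73 and 1.38.

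Other members marked other subclusters. *Gabrg3* was highest in jugular-like subcluster 10, led by the receptor gene *Gfra3*, with 1.69 (female) and 0.760 (male), and 60.1% of the jugular *Gabrg3* UMIs came from it. Subcluster 13 (0.752) and the nodose-like subcluster 12 (0.690) followed. *Glra1* was highest in jugular-like subcluster 5, led by *Grik1*, with 0.222 (female) and 0.194 (male), and 60 of the 78 jugular *Glra1* UMIs were there. *Gabbr2* was also high in subcluster 5, 5.53 (female) and 4.85 (male). *Gabra5* was highest in the unnamed subcluster 3, with 0.269 (female) and 0.189 (male), where *Gabra2* was 4.23 (female) and 3.58 (male). Subcluster 3 carries *Prdm12* but too few jugular markers for a name.

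The sympathetic-like subcluster 9, led by the noradrenaline transporter gene *Slc6a2*, was low in most receptor subunits other than *Gabbr1* and *Glrb*. Its 144 male nuclei had a *Gabra2* level of 0.141, *Gabrb1* of 0.0522, *Gabrb2* of 0.0418 and *Gabbr2* of 0.454, each at or below the macrophage-like level of the male library, which was 0.237, 0.0678, 0.170 and 0.577. *Gabrg3* was an exception, with 0.240 and 0 UMIs in macrophage-like nuclei. Only 5 nuclei of this subcluster were female, so no value is given for them.

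**Figure D3:**
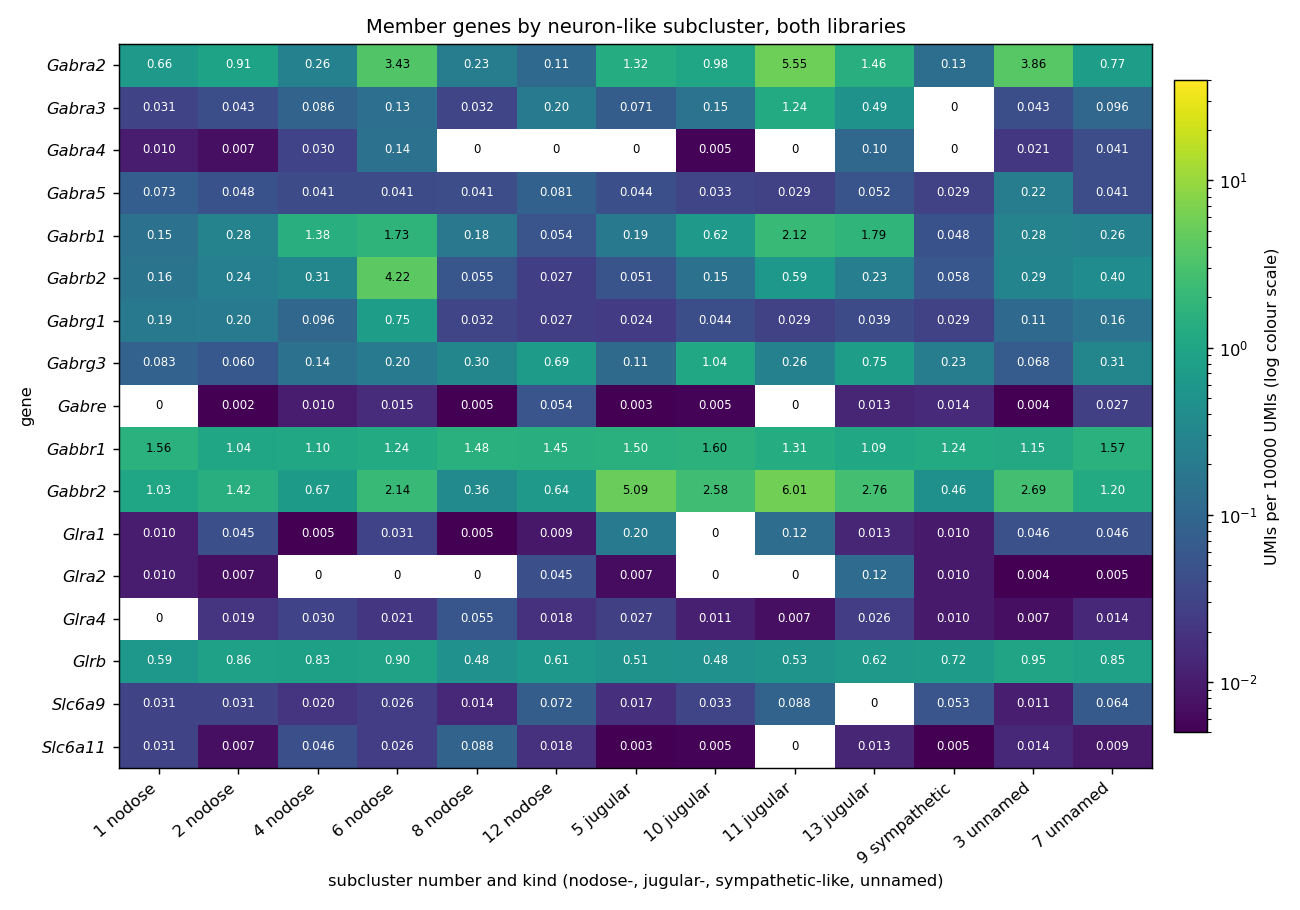
Level of 17 described members (rows; *Gabra6*, *Gabrd* and *Gad1* are left out as near 0 in neurons) in the 13 subclusters of neuron-like nuclei (columns, ordered by kind), as UMIs per 10000 UMIs over both libraries, on a log colour scale with 0 left white. Subcluster 6 is brightest for *Gabrb2* and *Gabrg1*, subcluster 11 for *Gabra2*, *Gabra3* and *Gabbr2*, subcluster 10 for *Gabrg3* and subcluster 5 for *Glra1*, while the sympathetic-like subcluster 9 is dark for most subunits.

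Granule-like nuclei carried a different set of subunits from that of the vagal neurons. Of 24 members with at least 20 UMIs, 7 were at least 2-fold higher in granule-like than in neuron-like nuclei, against 13.8% of all 17678 genes. They were *Gabra6*, *Gabrb2*, *Gabrd*, *Gabrr2*, *Glra4*, *Gad1* and *Gad2*. *Gabrr2* and *Glra4* had only 6 UMIs each in the 383 granule-like nuclei that the finer clustering did not move to the neurons. There *Glra4* was 0.0540 (0.0198 to 0.118), against 0.0151 (female) and 0.0218 (male) in neuron-like nuclei. With the finer clusters *Gad1* and *Gad2* were no longer 2-fold higher, with 0.0486 against 0.0283 and 0.0340 against 0.0188. *Gabra6*, which in the brain is known from granule cells, was 3.75 (female) and 2.40 (male), on 435 and 12 UMIs. In neuron-like nuclei it was 0.0590 (female) and 0.00545 (male). *Gabrd*, the delta subunit, a partner of *Gabra6* in receptors outside synapses, was 0.620 (female) and 0.400 (male) in granule-like nuclei and 0.0226 (female) and 0.00218 (male) in neuron-like nuclei. *Gabrb2* was 6.49 (female) and 7.20 (male) in granule-like nuclei, the 2 libraries having overlapping intervals of 6.03 to 6.97 and 5.05 to 9.97.

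Another 8 members were lower in granule-like nuclei, against 15.1% of all genes, and all of them were receptor subunits: *Gabra2*, *Gabra3*, *Gabra4*, *Gabra5*, *Gabrb1*, *Gabrg1*, *Gabrg3* and *Glra1*. In the 383 nuclei named above they had, in this order, 15, 6, 1, 3, 20, 5, 3 and 1 UMIs. In the female library alone 7 of 16 tested members were lower (15.7% of all genes) and 6 higher (12.9%), and in the male library, with its 24 granule-like nuclei, 1 of 18 was lower (5.96%) and 3 higher (16% of all genes). *Gabra2* was 0.157 (0.0945 to 0.245) and *Gabrg3* was 0.0248 (0.00511 to 0.0724) there. *Gabbr2* did not differ 2-fold, with 2.72 (2.43 to 3.03) in granule-like nuclei. Among related genes, *Slc12a5*, which codes for the KCC2 cotransporter that clears chloride from central neurons, was 0.850 in granule-like and 0.0171 in neuron-like nuclei. Of the list of chloride transport, 2 of 7 genes were higher and 1 lower in granule-like nuclei, of receptor anchoring 1 of 14 was higher and 3 lower, of the GABA-B receptor partners 5 of 7 were higher and 1 lower, and of the other carriers 4 of 6 were higher and 0 lower. Of 3 genes of GABA breakdown and the 2 of the benzodiazepine site list none passed, and of 6 of glycine breakdown 1 was higher and 0 lower.

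The granule-like nuclei were nearly all female, and their genes appeared at low levels in other classes of the female library. *Gabra6* was 0.145 (0.0395 to 0.371) in female macrophage-like nuclei, 0.136 (0.0791 to 0.217) in female Schwann cell-like nuclei and 0.0590 (0.0433 to 0.0784) in female neuron-like nuclei, and in the male library it was 0, 0 and 0.00545. The neuronal level was thus not above the macrophage-like level in the female library, whose interval is wide, and it is not read as expression. With the finer clusters the female neuron-like level was 0.0938, on 79 UMIs. Where these UMIs came from was not tested. *Gabrb2* was likewise 0.362 (0.174 to 0.666) in female macrophage-like and 0.192 (0.123 to 0.285) in female Schwann cell-like nuclei, against 0.050 (0.0229 to 0.0950) in male Schwann cell-like nuclei, so that its low levels in other classes of the female library are not read as expression. In male satellite glia-like nuclei it was 0.308 (0.244 to 0.382), above the male macrophage-like 0.170 (0.0551 to 0.396) but with overlapping intervals.

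**Figure D4:**
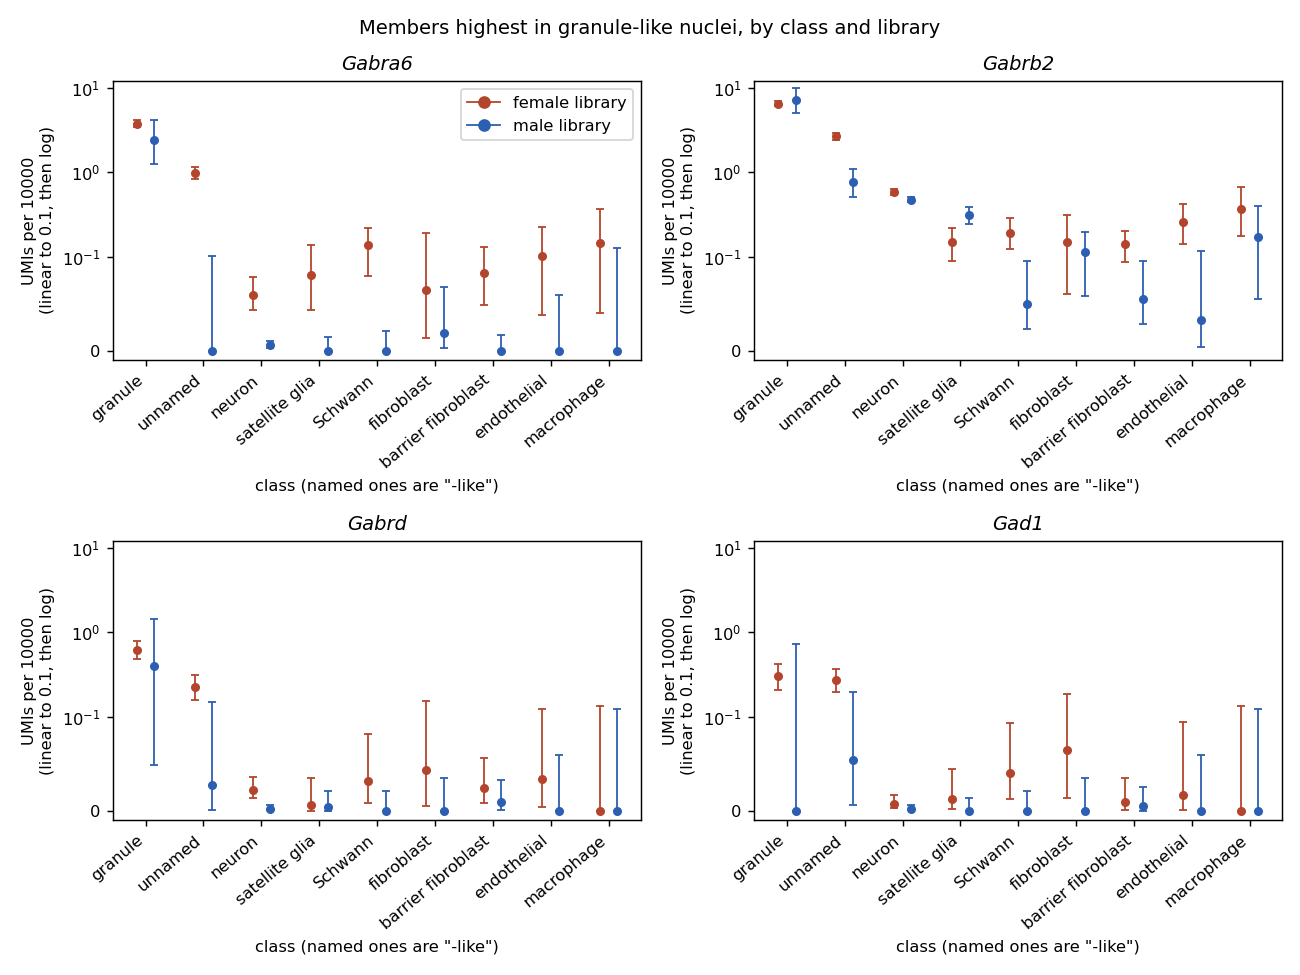
Level of *Gabra6*, *Gabrb2*, *Gabrd* and *Gad1* (panels) by class (horizontal axis), as UMIs per 10000 UMIs, linear up to 0.1 and log above, with the female library in red, the male library in blue and bars for the 95% counting interval. Both libraries are highest in granule-like nuclei for the 3 receptor subunits, the 24 male granule-like nuclei had 0 UMIs of *Gad1*, and the female points of *Gabra6* lie above the male points in every class shown.

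Astrocyte-like and pituitary cell-like nuclei, known from the finer clustering alone, also had sets of their own. In the 36 astrocyte-like nuclei *Gabrb1* was 35.4 (31.9 to 39.2) in the female library and 13.5 (8.79 to 19.7) in the 7 male nuclei, the highest level of any member in any class named here. *Gabra2* was 6.15 (4.85 to 7.69) and *Gabra4* was 2.96 (2.08 to 4.07) over both libraries. *Slc6a11*, which central astrocytes use to take up GABA, was 0.639 (0.276 to 1.26) on 8 UMIs. In pituitary cell-like nuclei *Gabrb1* was 3.54 (female) and 9.73 (male), *Gabra2* was 4.59 (female) and 3.58 (male), and *Gabra4* was 0.131 (female) and 0.648 (male). *Gabra2*, *Gabra4* and *Gabrb1* thus had higher levels in both of these groups than in the neuron-like nuclei, where the levels were 1.5, 0.0235 and 0.580.

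Between the libraries, most members tested in neuron-like nuclei differed less than 2-fold. Of 21 members with at least 20 UMIs, 0 were at least 2-fold higher in the male library, against 2.63% of all 17500 genes, and 3 were lower, against 1.35%. The 3 were *Gabra6*, *Gabrd* and *Glra3*. *Gabra6* and *Gabrd* are the genes of the granule-like nuclei, 388 female and 24 male, and their neuronal UMIs were 47 and 18 in the female and 10 and 4 in the male library. *Glra3* rested on 14 and 10 UMIs. Of the related lists, 1 of 7 genes of chloride transport, *Slc12a5*, was lower in the male library, on 30 female and 15 male UMIs, and no other gene of the 7 lists passed 2-fold in either direction. No p-value is given, as there was 1 library of each sex.

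Smaller differences lay outside the counting intervals. *Gabbr1* was 1.05 (female) and 1.42 (male), a log2 ratio of male over female of 0.44 (0.32 to 0.55), and *Gabbr2* was 2.55 (female) and 1.89 (male), a log2 ratio of -0.43 (-0.51 to -0.35). The male level of *Gabbr1* was also above the female level in macrophage-like nuclei, 1.29 against 0.579, and in Schwann cell-like nuclei, 1.17 against 0.743. *Gabra2* had a log2 ratio of -0.27 (-0.37 to -0.18), *Gabrb2* of -0.30 (-0.47 to -0.14) and *Gabrg1* of 0.45 (0.11 to 0.81). *Gabra5* had -0.53 (-0.997 to -0.058), and *Glra1* had -0.54 (-1.06 to -0.002). The intervals include no difference for *Gabrb1*, -0.08 (-0.24 to 0.08), *Gabrg3*, -0.11 (-0.35 to 0.12), and *Glrb*, 0.08 (-0.06 to 0.23). The mix of neurons differs between the libraries, so the ratio was also taken within kinds: *Gabbr2* had a log2 ratio of -0.40 within nodose-like and -0.16 within jugular-like nuclei, and *Gabra2* had 0.06 and 0.16. For *Gabra2* both of these intervals include no difference. In the unnamed neuron-like nuclei its log2 ratio was -0.58 (-0.74 to -0.42), but their subclusters went opposite ways. The ratio of *Gabra2* was -0.24 (-0.42 to -0.07) in subcluster 3 and 0.95 (0.27 to 1.70) in subcluster 7. Subcluster 3 had 104 female and 123 male nuclei, and subcluster 7 had 38 and 128. The value of -0.58 is thus not free of the mix of neurons. Within nodose-like and jugular-like nuclei, in this order, *Gabbr1* had 0.43 and 0.44, and *Gabrg1* 0.57 and 2.36, the latter on 2 female and 20 male UMIs. *Gabrb2* had -0.21 (-0.40 to -0.02) and 0.37 (-0.17 to 0.94), and its macrophage-like level was also higher in the female library. *Glra1* had -1.68 (-2.88 to -0.53) and -0.05 (-0.75 to 0.68). *Gabra5* had -0.03 and -0.64, and both intervals include no difference.

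**Figure D5:**
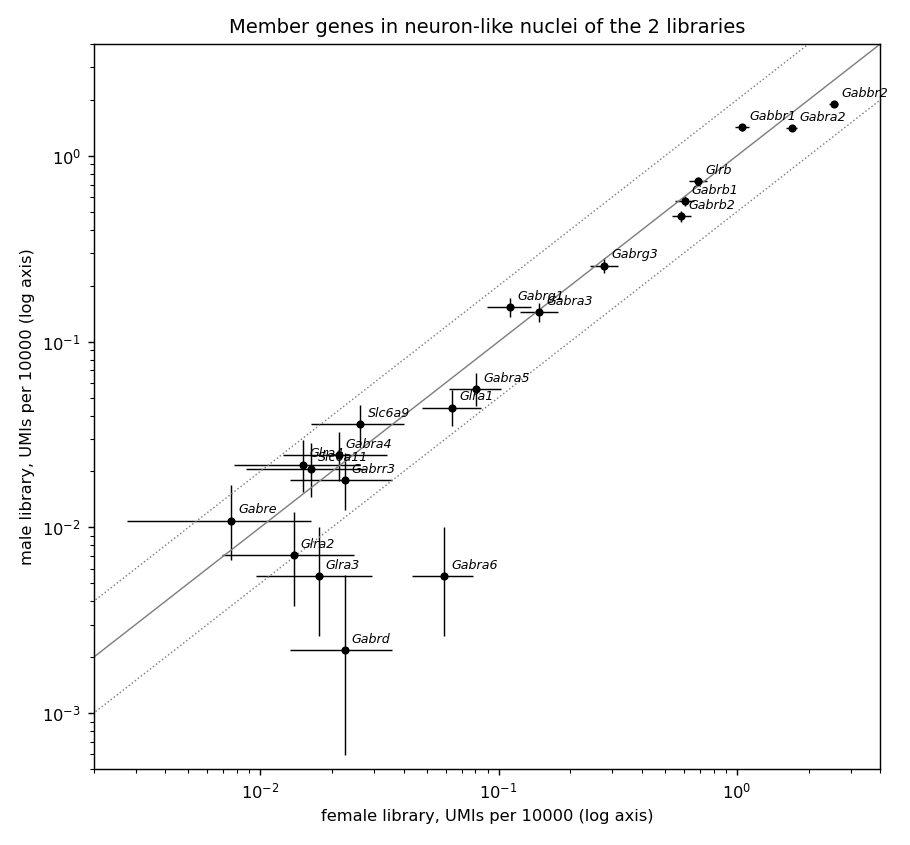
Level of the 21 members with at least 20 UMIs in neuron-like nuclei, female library (horizontal) against male library (vertical), as UMIs per 10000 UMIs on log axes, with bars for the 95% counting interval, the line of equal levels, and dotted lines at 2-fold. *Gabra6*, *Gabrd* and *Glra3* lie below the lower dotted line, and the members above 0.1 UMIs per 10000 lie between the dotted lines.

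The share of nuclei in which a member was seen followed depth as well as level. *Gabbr1* had a UMI in 57.3% of neuron-like and 18.6% of macrophage-like nuclei, and in 12.5% and 9.16% after thinning to 1000 UMIs, so that most of the gap between the classes was gone at equal depth. *Gabbr2* had 50.6% and 8.76% before and 14.8% and 3.66% after thinning. *Gabrb2* went from 69.4% to 44.1% of granule-like nuclei and *Gabra6* from 54.1% to 30.7%. Thinning left out 19 nuclei, all of them female, that had fewer than 1000 UMIs.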

How the data were processed

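RNA of single nuclei was counted in 1 female and 1 male pool of vagus nerve ganglia with the 10x Genomics 3' kit v3.1. The deposited values are whole UMI counts per gene and nucleus, made by the authors with Cell Ranger 7.1.0 on mm10 with introns included, after filtering of debris with DIEM and depth normalisation between libraries by cellranger aggr. That normalisation thins reads of the deeper library, so totals are not raw depth. The stated filter keeps nuclei over 1000 UMIs, and 19 of the 8714 nuclei in the counts were below it. No doublet caller was run here.

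From the counts, nuclei were clustered without the members, related genes and sex-linked genes (10 components, 243 neighbours, 20 clusters), and named where at least 3 markers passed 1.5-fold. Neuron-like nuclei were clustered again (3000 genes, 20 components, 30 neighbours, 13 subclusters). Levels are summed UMIs per 10000, with exact Poisson 95% intervals, and shares have exact Clopper-Pearson intervals. Both cover counting error only, and 0 counts are set at 3. Members with at least 100 UMIs were described, and at most 3 related genes of a list were named in a comparison. Members and lists were chosen with earlier results of these data known. Scripts were tested on simulated data. Coordinates are those of GENCODE on GRCm38, and promoters those of RefSeq. Python 3.11.15, numpy 2.4.6, scipy 1.17.1, scikit-learn 1.9.0 and igraph 0.11.9 were used. Alternatives changed the libraries, depth, scaling, minimum count, fold, free RNA and clustering, or left out subclusters 6 and 11 in turn or the sympathetic-like nuclei. Some marker genes are not reported here.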

Additional observations from a re-analysis of the deposited data

How the results depend on the processing

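No paired analysis was possible because each sex has 1 library. Leaving out 1 library moved several counts. In the female library alone, 7 members in place of 4 were lower in neuron-like nuclei and 2 in place of 6 were higher in nodose-like nuclei. In the male library alone, with 24 granule-like nuclei, 3 in place of 7 were higher in granule-like nuclei, and 13 of 20 described members kept their highest class. The log2 ratio of *Gabrb1* there was 0.0756 and that of *Gabrg1*, 1 of the 3, was 1.39, both reversed in sign. These rested on 3 UMIs of *Gabrb1* in the male granule-like nuclei and 2 of *Gabrg1* in 23 of them, too few to show a reversal. For the settings that follow, the share of all genes is not given, so their counts are not read as results about the members. With 1.5-fold as the limit, 8 members were lower in neuron-like nuclei. With a minimum of 50 UMIs, which leaves fewer genes tested, 2 were higher in nodose-like nuclei, 4 in granule-like nuclei and 1 lower in the male library. Without subcluster 6, 3 were higher in nodose-like nuclei and the log2 ratio of *Gabrb2* reversed to -0.15. Without subcluster 11, 5 were higher and 5 lower in nodose-like nuclei. Between the sexes, where 0 were higher and 3 lower in the male library, the mean over nuclei gave 2 higher, subtraction of the macrophage-like level gave 2 higher and 1 lower, no minimum gave 5 lower, the finer clusters gave 6 lower, and jugular-like nuclei alone gave 1 higher and 0 lower. In the finer clusters the log2 ratio of *Gad1* in neuron-like over other classes reversed to 1.20, with the nuclei that moved to the neurons. The share of nuclei with inhibitory transmitter genes, 1.35%, was 2.59% for female and 0.406% for male nuclei, 1.73% in nuclei with over 2000 UMIs, 0.529% after thinning to 1000 UMIs and 0.493% with at least 2 UMIs, and the finer clusters gave 2.60% in neuron-like and 2.57% in granule-like nuclei. Where no cause is named, the cause was not tested. The settings that set aside subclusters or sympathetic-like nuclei, named the unnamed subclusters or took 1 kind alone were chosen after seeing the data.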
